A study of Mus musculus with 5 samples.

Results

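The cells described here were Car1-rich cells of the megakaryocyte/erythroid progenitor (MEP) gate of mouse bone marrow in which no Sphk1 transcript was counted. They were chosen from the MEP matrix among cells with at least 500 genes and at most 10% of unique molecular identifiers (UMIs, counted transcript molecules) from mitochondrial genes. Of these, cells with 10 or more UMIs of Car1, 0 of Sphk1 and fewer than 5 of Pf4 were taken, and they are called Sphk1-negative Car1 cells. The rule held for 1462 of 6284 MEP cells, 23.3% (exact 95% binomial interval 22.2 to 24.3), out of 28894 cells in all gates. They were set against the 4490 MEP cells with 1 or more UMI of Sphk1, called Sphk1-positive cells. The other 332 MEP cells met neither description, 329 of them with fewer than 10 UMIs of Car1 and 119 with 5 or more of Pf4. The labels list 5 samples of primary bone marrow from wild type C57BL/6 mice that were healthy controls, with no treatment, age or number of animals stated, profiled with a 10x Genomics 3' single-cell kit. The MEP gate was lineage-negative, KIT-positive, SCA1-negative, CD34-negative and CD16/32-negative. The other gates were LSK (lineage-negative, SCA1-positive, KIT-positive) and, both KIT-positive, SCA1-negative and CD34-positive, the common myeloid progenitors (CMP, CD16/32-negative) and the granulocyte/monocyte progenitors (GMP, CD16/32-positive). The 2 CMP samples held the same matrix and counted once, so each gate was 1 library and no difference has a replicate check or a p-value.

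Red cells form from bipotent progenitors that first switch on the erythroid factors GATA1 and KLF1 while GATA2 and MYB decline, and that then build up iron uptake, heme synthesis, membrane skeleton and globin transcripts over a series of divisions. Car1, a carbonic anhydrase, and Aqp1, a water channel, are transcribed early on this path, and Apoe encodes a lipid-carrying apolipoprotein. Sphk1 encodes a sphingosine kinase that makes sphingosine 1-phosphate (S1P), a lipid signal that mature red cells store and release into the blood.

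The values that chose the cells are given as a description. Sphk1-negative Car1 cells held a median of 32 and at most 166 UMIs of Car1, and 57 of them (3.90%) held 1 to 4 UMIs of Pf4. Just inside the Car1 limit, 82 cells with 10 to 12 UMIs had 1350 CPM of Apoe (counts of a gene scaled to a common total, so that groups of different size compare) and 163 of Gata2. Just outside it, 63 cells with 7 to 9 UMIs had 1565 CPM of Apoe and 160 of Gata2. The cells on both sides of this limit were shallow, with medians of 4107.5 and 4125 UMIs, and their levels are from unthinned counts. Just outside the Sphk1 limit, 1082 cells with 1 UMI of Sphk1 that met the other criteria had 473 CPM of Apoe and 42.9 of Gata2. The Pf4 limit touched few cells, with 2 cells at 3 or 4 UMIs inside it and 3 otherwise eligible cells outside it. Car1 lies at chr3:14766216-14808368 on the minus strand and Sphk1 at chr11:116530925-116536674 on the plus strand (mm10, GENCODE M21).

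Absence of Sphk1 followed the depth of a cell. Of MEP cells with 3000 to 5000 UMIs, 77.5% (74.2 to 80.6) had no Sphk1 UMI. The share was 58.2% at 5000 to 8000 UMIs, 33.0% at 8000 to 12000, 13.3% at 12000 to 16000, 3.94% at 16000 to 22000 and 1.13% above that. The level of Sphk1 itself was 68.7 CPM in the shallowest of these classes and 256 CPM in the deepest, so its level and the chance of counting it went up together. The Sphk1-negative Car1 cells therefore had a median of 7151.5 UMIs and 2318 genes, against 14915 UMIs and 3411.5 genes in the Sphk1-positive cells. The median mitochondrial share was close in the 2 groups, at 3.13% and 3.19%. To compare at equal counting depth, every cell was thinned at random to 5000 UMIs. This left out 325 shallower Sphk1-negative Car1 cells and 156 Sphk1-positive cells and kept 1137 and 4334. Thinning equalises the counting and not the original RNA content or depth of the cells. Values matched on the original depth are therefore given below for many of the gene lists and genes. Where none is given, a ratio holds the depth difference too.

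**Figure D1:**
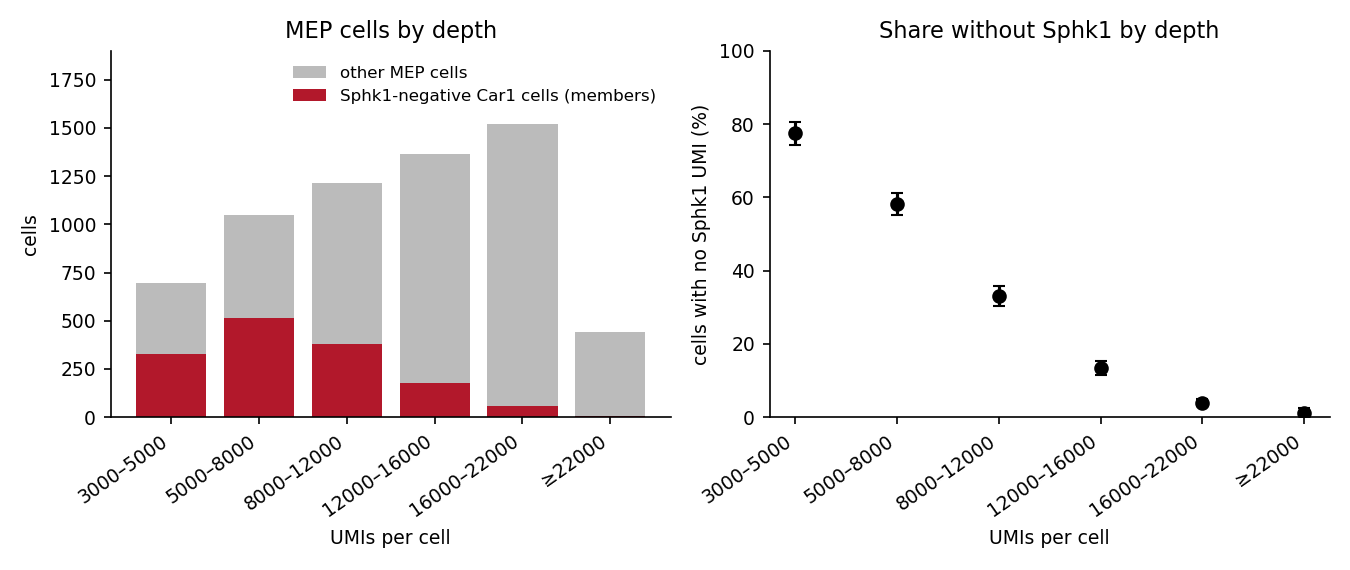
Left, MEP cells in 6 classes of UMIs per cell, with Sphk1-negative Car1 cells in red (325 in the shallowest class, 5 in the deepest) and other MEP cells stacked above in grey. Right, the percentage of MEP cells in each class with no Sphk1 UMI, with exact 95% binomial intervals, from 77.5% down to 1.13%.

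Of the 3 genes that were to mark these cells, only Apoe separated them from the Sphk1-positive cells. Car1 had 4614 CPM (95% Poisson interval 4559 to 4671) against 4634 CPM, which the rule on Car1 had a part in. Aqp1 had 377 CPM (361 to 393) against 360 CPM (352 to 368), a log2 ratio of 0.06 (-0.01 to 0.13). Apoe had 857 CPM (833 to 881) against 286 CPM (279 to 293), a log2 ratio of 1.58 (1.53 to 1.64). In the groups matched on original depth, described below, it had 833 against 499 CPM, a log2 ratio of 0.74 (0.67 to 0.81). Apoe was counted in 81.8% of the thinned Sphk1-negative Car1 cells and in 47.4% of the Sphk1-positive cells (88.2% and 68.7% without thinning). The GMP library, where Apoe is low, had it in 14.3% of thinned cells at a median of 9100 UMIs. Aqp1 was counted in 80.8% and 81.1% of the thinned cells of the 2 MEP groups. Other erythroid markers were counted as well. Klf1 had 360 CPM here against 1.33 in GMP, and Gata1 123 CPM against 1.58. The anion exchanger gene Slc4a1, of mature red cells, was at 0 UMIs in the Sphk1-negative Car1 cells.

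Transcripts of the antigens that the gate excludes were scarce. Cd34 had 0.176 CPM, Ly6a 0.176, Fcgr3 0.704 and Fcgr2b 0.880 CPM in the Sphk1-negative Car1 cells. Kit had 57.9 CPM here and 45.6 CPM in the Sphk1-positive cells. Marker lists of other cell types summed to small totals. The granulocyte-monocyte list (12 genes) came to 33.6 CPM against 15.1 CPM in the Sphk1-positive cells, with Mpo, Csf1r, Ly6c2 and Cebpe at 0. The basophil and mast list (10 genes) came to 33.4 against 20.7 CPM, with Mcpt8, Prss34, Cma1, Tpsb2 and Cd200r3 at 0. The eosinophil list (6 genes) came to 0.528 against 0.0461 CPM. The megakaryocyte list without Pf4 (13 genes) came to 183 against 139 CPM, with Itgb3 and Gp6 at 0. Its direction turned on the setting, with a median log2 ratio of 0.16 over the 8 genes detected. With original depth matched, the median of these 8 was -0.24, and that of the 10 genes detected there was -0.88. The Sphk1-positive cells had no Pf4 limit, and the matched ones had 75.9 CPM of Pf4 against 6.65. Against Sphk1-positive cells that also met the Car1 and Pf4 limits, the median of the 8 was 0.96. The macrophage list (9 genes) came to 25.3 against 33.5 CPM, with C1qa, C1qc, Adgre1, Vcam1 and Mertk at 0. The stem cell list (12 genes) came to 117 against 108 CPM, with Procr and Flt3 at 0. Within it Mllt3 had 60.7 against 82.1 CPM, while the other 6 detected genes had higher levels in the Sphk1-negative Car1 cells, such as Angpt1 (20.4 against 6.32 CPM), and the median log2 ratio of the 7 was 1.35. With original depth matched, the median was 0.25 and Angpt1 was at 0.85. The intervals of Mllt3, Meis1, Hoxa9 and Slamf1 included 0 there. The lymphoid list (10 genes) came to 130 against 25.8 CPM, of which Nkg7 alone gave 126 CPM, and Cd3e, Cd3g, Klrb1c and Gzma were among those at 0. Between the MEP matrix and the other gates, 178 cell barcodes were shared. Without these cells, 77 genes were higher and 54 lower by the rule given next, and without cells holding a UMI of granule, mast or platelet markers the counts were 68 and 59.

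A gene was counted as higher or lower where the higher group had at least 50 CPM and the ratio was at least 1.5-fold, a rule of size that takes the place of a test. Of 2796 genes that reached 50 CPM in either group, 76 (2.72%) were higher in the Sphk1-negative Car1 cells and 52 (1.86%) were lower, Sphk1 itself among the latter. Both directions together made 4.58%. The 12 with the largest ratios upward were Ifitm1, Vim, Nkg7, Csrp3, Fos, Coro1a, Plac8, Klf6, Dusp1, Lgals1, Jun and Apoe, with log2 ratios from 2.62 to 1.58. Besides Sphk1, the 12 largest downward were Hbb-bt, Crip2, Rgcc, Hba-a1, Fam132a, Hebp1, Asns, Nxpe2, Cldn13, Lmna, Add2 and Rhd, from -1.29 to -0.97. The median log2 ratio over the 10005 genes that averaged at least 1 CPM was 0.02. These counts came down when 1022 cells of each group were matched on original depth (medians 8957.5 and 8942.5 UMIs), to 23 higher (0.831% of 2767 genes) and 13 lower (0.47%). Sphk1 and Pf4, both used by the rule that chose the cells, were among these 13. The Sphk1-positive cells had no Car1 or Pf4 limit, and the matched ones had 75.9 CPM of Pf4 against 6.65. The matched groups can therefore still differ in their mix of cells. All 76 and all 52 genes kept their direction there, with median log2 ratios of 0.49 and -0.45 in place of 0.90 and -0.76. The matched cells are part of those in the full comparison, so this is not an independent check. When absence of Sphk1 was read from the thinned counts in place of the full ones, 27 genes were higher and Sphk1 was the 1 gene lower.

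**Figure D2:**
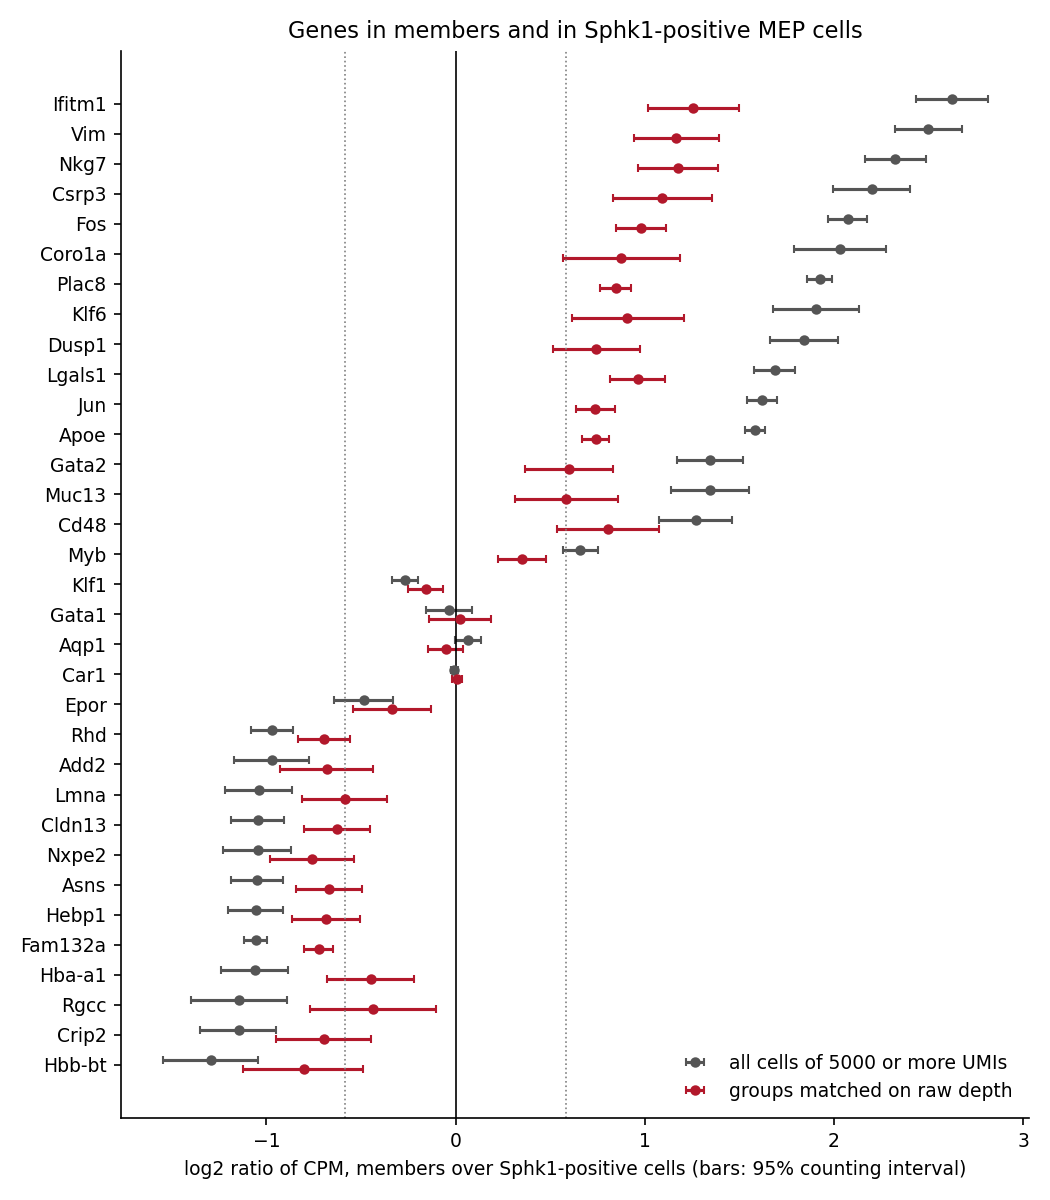
Log2 ratio of CPM of Sphk1-negative Car1 cells (called members in the plot) over Sphk1-positive cells for 33 genes, with 95% intervals for counting error, for all cells of 5000 or more UMIs (grey) and for the groups matched on original depth (red). Dotted lines mark 1.5-fold. The red ratios lie nearer 0 than the grey ones for Ifitm1 (1.26 against 2.62) and Rhd (-0.70 against -0.97), and Car1, Aqp1 and Gata1 lie at 0 in both.

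Genes of earlier progenitors were higher in the Sphk1-negative Car1 cells. Of 13 such genes tested, 6 were higher and none lower, where 2.72% and 1.86% of all 2796 tested genes were. The median log2 ratio of the 15 detected was 0.66. This list was chosen with earlier results of these data known, so its direction is a description. Gata2, the factor that precedes Gata1 in these lineages, had 80.6 CPM (73.4 to 88.3) against 31.7 CPM (29.4 to 34.2), a log2 ratio of 1.35. Myb, which sustains progenitor division, had 234 against 148 CPM (0.66). Both factors thus stood above their level in the Sphk1-positive cells. Muc13, a transmembrane mucin, had 57.5 against 22.7 CPM (1.34). Cd48, an adhesion receptor of blood cells, had 64.7 against 26.9 CPM (1.27). Hes6 and Zfp36l2 passed the rule with smaller ratios of 0.71 and 0.73, while Myc (104 against 70.1 CPM, 0.57), Kit (0.34) and Lmo2 (0.02) did not pass it. With original depth matched, Gata2 (0.60), Muc13 (0.58) and Cd48 (0.81) still passed, and the list median was 0.27.

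Erythroid transcription factors passed the rule of size in both directions. Of 17 tested, Gata2, Myb and Nfe2 were higher and E2f4 was lower, where 2.72% and 1.86% of all 2796 tested genes were. The median over 27 was 0.14. With original depth matched, Gata2 alone passed, with Myb at 0.35, Nfe2 at 0.41, E2f4 at -0.35 and the median at 0.02, and within 12000 to 16000 UMIs Gata2 was at -0.0073. Nfe2, a subunit of a globin-locus activator, had 86.5 against 52.6 CPM (0.72), and E2f4, a cell cycle regulator needed for red cell formation, had 145 against 224 CPM (-0.62). Among the core erythroid factors, Gata1 and several partners were near level in the 2 groups, while Klf1 and Zfpm1 were somewhat lower. Gata1 had 123 CPM (114 to 132) against 126 CPM (121 to 131), and its partners Tal1 (75.6 against 77.7 CPM), Ldb1 (77.4 against 74.8), Lmo2 (367 against 362) and Gfi1b (88.7 against 91.6) also had ratios whose intervals include 0 on the log2 scale. Gata1 was counted in 46.0% of the thinned cells of either group. Klf1, which activates globin and membrane genes, had 360 CPM (344 to 376) against 433 CPM (424 to 441), a log2 ratio of -0.27, and Zfpm1, the GATA1 cofactor FOG1, 47.7 against 67.7 CPM (-0.51). Both fell short of the 1.5-fold limit. With original depth matched, Klf1 was at -0.16 (-0.25 to -0.07) and Zfpm1 at -0.55 (-0.79 to -0.31).

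Promoters of 59 of the 76 higher and 44 of the 52 lower genes were in the RefSeq promoter table (GRCm38.p6), and their 250 bases upstream of the first listed start were searched on both strands for AGATAA, the GATA motif, and CACCC, the core of KLF sites. AGATAA was in 4 of the 59, 3 of the 44, 5.62% of the 2187 tested genes with a promoter and 10.3% of all 27025 promoters. CACCC was in 39 of the 59, 34 of the 44, 53.6% of the tested and 51.3% of all. A longer KLF motif, CCACACCC, which holds CACCC, was in 4 and 2 promoters (3.43% of the tested) and the AP-1 motif TGACTCA in 2 and 1 (2.19%). The 2 windows below are shown because Apoe stood highest in the cells without Sphk1 and Rhd highest in those with most Sphk1, as the values by Sphk1 class show. Apoe lies at chr7:19696109-19699188 and Rhd at chr4:134864536-134896172. Capitals mark matches to AGATAA or CACCC on either strand, and each sequence ends at the base before the gene's start. The Apoe window is chr7:19699189-19699438 on the minus strand and the Rhd window chr4:134864286-134864535 on the plus strand.
Apoe: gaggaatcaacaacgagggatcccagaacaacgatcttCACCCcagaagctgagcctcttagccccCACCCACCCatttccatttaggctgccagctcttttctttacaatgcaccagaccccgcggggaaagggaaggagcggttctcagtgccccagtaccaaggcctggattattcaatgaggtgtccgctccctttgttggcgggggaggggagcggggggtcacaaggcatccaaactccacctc
Rhd: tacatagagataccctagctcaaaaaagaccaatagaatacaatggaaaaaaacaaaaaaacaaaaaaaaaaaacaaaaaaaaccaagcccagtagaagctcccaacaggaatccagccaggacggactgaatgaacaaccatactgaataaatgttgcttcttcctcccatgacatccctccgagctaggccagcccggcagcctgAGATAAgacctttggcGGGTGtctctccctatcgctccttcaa
The Apoe window holds 3 matches of CACCC and none of AGATAA. The Rhd window holds 1 match of each. A match describes letters and does not show that a factor binds there.

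Immediate early genes, which cells transcribe within minutes of a stimulus and which also respond to tissue handling, were higher in the Sphk1-negative Car1 cells. All 6 genes tested passed the rule, where 2.72% of all 2796 tested genes were higher. The median of the 11 detected was 1.62, and Nr4a1 had 0 UMIs. Fos had 282 CPM (268 to 296) against 66.9 CPM (63.5 to 70.4), a log2 ratio of 2.07, and Jun 423 against 138 CPM (1.62). Dusp1, a phosphatase that switches off MAP kinases, had 86.7 against 24.2 CPM (1.84). Junb (92.0 against 49.0 CPM), Jund (302 against 182) and Ier2 (121 against 60.5) had log2 ratios of 0.91, 0.73 and 1.001. Fos was counted in 43.3% of thinned Sphk1-negative Car1 cells and 17.6% of Sphk1-positive cells, and Fos and Jun varied together over the 1137 cells, with a Pearson correlation of 0.60 that shares library and counting depth. In the depth-matched groups Fos (0.98), Jun (0.74) and Dusp1 (0.74) passed, and the list median was 0.74. Among cells of 12000 UMIs or more the list median was 0.17 and Dusp1 turned to -0.25, and within 12000 to 16000 UMIs these were 0.27 and -0.57. The part of cell handling in these levels was not tested.

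Of the 76 higher genes, 55 had a higher level in LSK than in the Sphk1-negative Car1 cells, 47 in CMP and 35 in GMP, where of all 2796 tested genes 821, 920 and 858 did. Plac8, abundant in myeloid progenitors, had 695 CPM (674 to 717) against 183 CPM (178 to 189), a log2 ratio of 1.92, and was counted in 73.2% against 30.9% of thinned cells. It had 5674 CPM in CMP and 7074 in GMP, where 100% of cells held it. Lgals1, which encodes galectin-1, had 232 against 71.9 CPM (1.69) and 1170 CPM in CMP. Ifitm1, an interferon-induced membrane protein gene, had 106 CPM (97.3 to 114) against 17.1 CPM (15.4 to 18.95), the largest log2 ratio at 2.62, and 741 CPM in LSK. A minority of the thinned Sphk1-negative Car1 cells held its counts, with an upper quartile of 0 UMIs and a maximum of 20. Among cells of 16000 UMIs or more it had 3.08 against 4.95 CPM. The relatives of Ifitm1 differed less, with Ifitm2 at 664 against 482 CPM and Ifitm3 at 131 against 93.9 CPM. Ifitm1 was the 1 gene of 4 tested in the interferon response list that passed, where 2.72% of all tested genes were higher. Nkg7, known from the granules of cytotoxic lymphocytes, had 126 against 25.1 CPM (2.33) and 1200 CPM in GMP. Plac8, Lgals1, Ifitm1 and Nkg7 thus each had a higher level in another gate than in either MEP group. Csrp3, a LIM-domain protein gene known from muscle, had 78.8 CPM against 17.2 CPM (2.20) and 1.34 CPM in LSK, 22.2 CPM in CMP and 14.1 CPM in the GMP library, but 224 CPM (37 UMIs) in the CMP cells that met the same rule. With original depth matched, the log2 ratios were 0.85 for Plac8, 0.96 for Lgals1, 1.26 for Ifitm1, 1.18 for Nkg7 and 1.09 for Csrp3, all past the rule.

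Vim, the intermediate filament vimentin, had 113 against 20.1 CPM (2.499). Coro1a, an actin-binding coronin, had 51.7 against 12.6 CPM (2.03). The next genes were picked out after their values were seen. Arpc1b, a subunit of the actin-branching ARP2/3 complex, had 294 against 135 CPM (1.12), and Cotl1, which binds actin filaments, 64.0 against 29.3 CPM (1.13). The actin-sequestering thymosins Tmsb4x (287 against 144 CPM) and Tmsb10 (341 against 191 CPM) had log2 ratios of 0.99 and 0.84. Vim (1.17), Arpc1b (0.64) and Cotl1 (0.62) passed in the depth-matched groups, where Coro1a, at 0.87, was just below 50 CPM. The immunoproteasome subunits Psmb8 (331 against 192 CPM, 0.78) and Psmb9 (133 against 83.4 CPM, 0.67) and the class I antigen H2-Q7 (161 against 102 CPM, 0.65) were higher by less. Psmb8, Psmb9, H2-Q7, Tmsb4x and Tmsb10 did not pass in the depth-matched groups. Of surface antigens, Cd9 (51.9 against 18.4 CPM, 1.49) and Cd63 (142 against 82.7 CPM, 0.78), both tetraspanins, were higher, and Cd24a (248 against 403 CPM, -0.70) and the tetraspanin Cd82 (59.8 against 94.8 CPM, -0.66) lower. None of these 4 passed with depth matched, at 0.53, 0.44, -0.45 and -0.44.

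Genes of later erythroid cells were lower. Of 12 tested, 6 were lower and none higher, where 1.86% and 2.72% of all 2796 tested genes were. All 15 detected had negative ratios, and the median was -0.76. This list too was chosen with earlier results of these data known. Rhd, the Rhesus blood group carrier of the red cell membrane, had 131 CPM (122 to 141) against 257 CPM (250 to 264), a log2 ratio of -0.97, and was counted in 42.0% against 64.3% of thinned cells. Cldn13, a claudin of mouse erythroid cells, had 84.3 against 174 CPM (-1.05). Add2, the membrane skeleton protein beta-adducin, had 41.2 against 80.7 CPM (-0.97). Nxpe2 (51.0 against 105 CPM), Paqr9 (37.1 against 63.8 CPM) and Tfrc made up the 6. Not every gene of the list was lower by 1.5-fold, since Ermap, an erythroid membrane protein, had 212 against 268 CPM and Tspo2, an erythroid porphyrin-binding protein, 196 against 199 CPM. With depth matched, Rhd (-0.70), Cldn13 (-0.63), Tfrc (-0.59), Nxpe2 (-0.76) and Add2 (-0.68) still passed, and the median was -0.52. Of the red cell membrane list, 3 of 9 tested were lower, Rhd, Add2 and Cldn13. The median of 19 was -0.37, and -0.19 with depth matched. Epor, the erythropoietin receptor, had 70.7 CPM (64.0 to 78.0) against 99.0 CPM (94.9 to 103), a log2 ratio of -0.49.

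**Figure D3:**
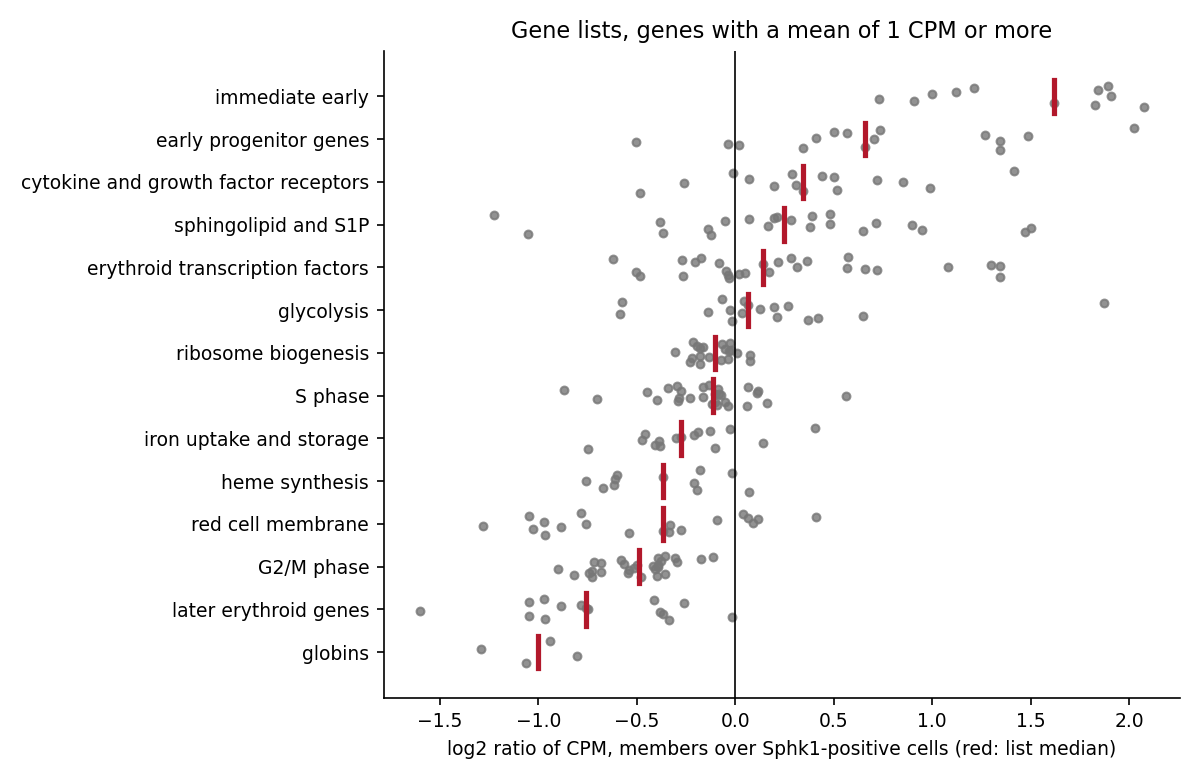
Log2 ratios of CPM, Sphk1-negative Car1 cells (called members in the plot) over Sphk1-positive cells, for genes of 14 lists that averaged at least 1 CPM. Each point is a gene and the red bar is the list median, which runs from 1.62 in the immediate early list to -1.002 in the globins, with glycolysis (0.06) and ribosome biogenesis (-0.10) near 0.

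Globin transcripts were low in both groups and lower in the Sphk1-negative Car1 cells. Hba-a1 had 51.4 CPM (45.6 to 57.6) against 107 CPM (103 to 112), a log2 ratio of -1.06. Hbb-bt had 25.5 against 62.4 CPM (-1.29) and Hbb-bs 33.2 against 63.9 CPM (-0.94). All 3 globins tested were lower, where 1.86% of all 2796 tested genes were, and the median over 4 was -1.002. Hba-a1 and Hba-a2, and likewise Hbb-bs and Hbb-bt, are near-identical, so counting can split their reads in ways that cannot be seen here. Hba-a1 was counted in 13.8% of thinned Sphk1-negative Car1 cells against 0.254% of GMP cells. In the depth-matched groups the median was -0.45 and none reached the limits of size. Within 12000 to 16000 UMIs the median was -0.0088, and Hbb-bs turned, at 60.3 against 55.0 CPM (0.13).

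Heme and iron genes were lower by smaller ratios. In the heme synthesis list, Cpox, an enzyme of the pathway (137 against 231 CPM, -0.76), and Slc25a38, a mitochondrial glycine carrier (36.9 against 56.1 CPM, -0.60), were among the lower genes, none was higher, and the median was -0.37. Alad (268 against 307 CPM) and Urod (203 against 235 CPM) were close in the 2 groups. Of 9 iron genes tested, Tfrc alone was lower, where 1.86% of all 2796 tested genes were. Tfrc, the transferrin receptor, had 55.6 CPM (49.6 to 62.1) against 93.4 CPM (89.3 to 97.5), a log2 ratio of -0.75. The ferritin heavy chain gene Fth1 had 2632 against 3657 CPM (-0.47). Neither Cpox nor Slc25a38 passed with depth matched, where the median of the heme synthesis list was -0.19. Hebp1, a heme-binding protein gene, had 77.7 against 162 CPM (-1.06) and passed there too, at -0.69. Of the zinc-binding metallothioneins, Mt2 had 276 against 455 CPM (-0.72, and -0.46 with depth matched, no longer past the rule) and Mt1 590 against 768 CPM (-0.38). Car2, the other abundant carbonic anhydrase, had 3051 against 4300 CPM (-0.50), while Car1 did not differ. Fam132a, listed as C1qtnf12 in GENCODE and encoding the secreted protein adipolin, had 424 CPM (407 to 441) against 881 CPM (868 to 893), a log2 ratio of -1.06, and -0.72 with depth matched. Asns, asparagine synthetase, had 83.4 against 172 CPM (-1.05).

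Most of the other sphingolipid genes were below 50 CPM. Of 4 genes tested, S1pr4 alone passed, in the upward direction, where 2.72% of all tested genes did. The median of 22 detected was 0.25, and 0.06 with depth matched. S1pr4, an S1P receptor of blood cells, had 78.5 CPM (71.3 to 86.1) against 40.6 CPM (38.0 to 43.4), a log2 ratio of 0.95, and 0.56 with depth matched, where it no longer passed. Sphk2, the second sphingosine kinase, was at 13.2 CPM (10.4 to 16.5) against 14.4 CPM (12.8 to 16.0). Mfsd2b, the S1P exporter of red cells and platelets, had 81.3 against 62.5 CPM (0.38, and 0.17 with depth matched). Spns2, an exporter known from endothelium, had 17.8 against 6.28 CPM (1.501, and 0.95 with depth matched), below the 50 CPM limit. Transcripts for an S1P exporter and an S1P receptor were thus counted in cells with no Sphk1 UMI, and Mfsd2b had 0.565 CPM in the GMP library. Ugcg, which makes glucosylceramide (98.3 against 85.7 CPM), and the ceramide synthase Cers2 (157 against 140 CPM) differed little. Plpp1, a lipid phosphatase, had 7.21 against 16.9 CPM (-1.23), the lowest ratio among pathway genes of 10 CPM or more other than Sphk1. With depth matched it was at -0.43 (-1.06 to 0.18).

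Some mitotic genes were lower in the full comparison. Of 24 G2/M genes tested, 7 were lower and none higher, where 1.86% and 2.72% of all 2796 tested genes were. The median of 28 was -0.49. Plk1, a mitotic kinase, had 36.2 against 67.6 CPM (-0.90), Ccna2, cyclin A2, 62.3 against 110 CPM (-0.82), and Ube2c, a ubiquitin carrier of mitosis, 179 against 300 CPM (-0.75). Ccnb1, Birc5, Aurka and Hmmr were the others. Of 26 S phase genes tested, Ccne1 (56.3 against 103 CPM, -0.87) and Rrm2 (97.8 against 159 CPM, -0.70) were lower, and the median of 28 was -0.11, with Pcna at 189 against 195 CPM. With depth matched, none of the G2/M genes passed and their median was -0.15, while Ccne1 passed at -0.60. Within 12000 to 16000 UMIs the G2/M median was -0.062, and Ube2c (0.067) and Aurka (0.076) turned. Cell cycle inhibitors were scarce, with 1 of 12 genes tested and 9 detected at a median of 0.66 (0.30 with depth matched). Ribosome biogenesis (17 tested), glycolysis (9), cholesterol synthesis (2) and antioxidant genes (13) had none past the rule, and Gapdh had 635 against 646 CPM.

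The same genes were graded over the number of Sphk1 UMIs in a cell, which the rule also used, so the values are a description. Cells without Sphk1 (1137 cells) and those with 1 (1025), 2 (865), 3 to 4 (1242), 5 to 8 (980) and 9 or more UMIs (222) were read at the same 5000 UMIs, with median original depths from 8473 UMIs in the first class to 22020.5 in the last. Apoe had 857, 528, 337, 220, 121 and 73.0 CPM in these classes in turn. Plac8 had 695, 382, 224, 126, 48.8 and 18.9 CPM. Both were lower in each class than in the one before. Gata2 had 80.6 CPM without Sphk1, 44.5 with 1 UMI and 17.1 with 9 or more. In the other direction, Rhd had 131, 197, 226, 269, 308 and 359 CPM and Fam132a 424, 664, 782, 918, 1087 and 1143 CPM. Gata1 (123 to 142 CPM) and Car1 (4614 to 4206 CPM) ended near where they began. Deeper cells hold more Sphk1 UMIs, so the classes were also read within 12000 to 16000 UMIs, a window chosen after the data were seen. There the Sphk1-negative Car1 cells (179) had 460 CPM of Apoe, the cells with 1 UMI of Sphk1 (258) had 354 and those with 5 to 8 (231) had 158. Rhd had 167, 236 and 294 CPM in these classes. Gata2 did not follow, at 29.1, 29.5 and 25.1 CPM, so its difference between the groups was not seen within this window. Hba-a1 had 87.2, 87.6 and 114 CPM.

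**Figure D4:**
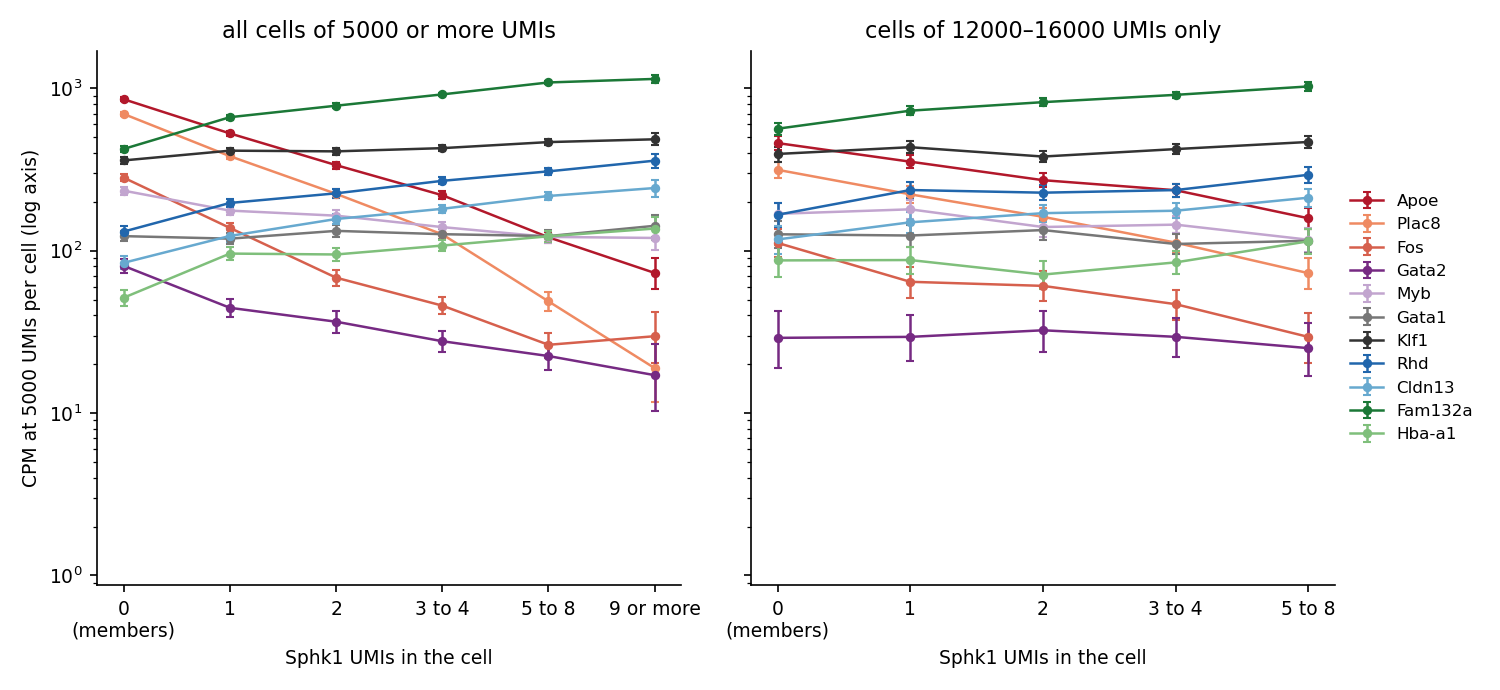
Level in CPM at 5000 UMIs per cell (log axis) of 11 genes in classes of MEP cells by Sphk1 UMIs, with 95% Poisson intervals, for all cells of 5000 or more UMIs (left) and for cells of 12000 to 16000 UMIs (right). The class at 0 is the Sphk1-negative Car1 cells. Apoe runs from 857 to 73.0 CPM on the left and from 460 to 158 CPM on the right, where the class of 9 or more UMIs (13 cells) is not drawn, and Gata2 is flat on the right.

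Depth also graded the Sphk1-negative Car1 cells among themselves, all read at 5000 UMIs. Cells of 5000 to 8000 UMIs (512), 8000 to 12000 (381), 12000 to 16000 (179) and 16000 or more (65) had 1111, 811, 460 and 219 CPM of Apoe. Gata2 had 111, 73.0, 29.1 and 24.6 CPM, and Fos 441, 189, 112 and 40.0 CPM. Rhd had 97.7, 137, 167 and 268 CPM, and Ube2c 127, 176, 265 and 369 CPM. The shallower cells without Sphk1 thus had more of the earlier genes and the deeper ones more of the later and mitotic genes, while Klf1 (347, 355, 394 and 391 CPM) and Gata1 (120, 125, 126 and 129 CPM) stayed level. At 5000 to 8000 UMIs the Sphk1-positive cells had 581 CPM of Apoe and 204 of Rhd, and at 16000 or more 129 and 299 CPM. Of the 76 higher and 52 lower genes, 74 and 52 kept their direction in the shallowest of these classes, 76 and 52 in the next, 71 and 48 in the third and 50 and 37 in the deepest, where 65 cells limit the precision. The median log2 ratios of the 2 sets in the deepest class were 0.16 and -0.09.

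The Sphk1-negative Car1 cells were also read by their level of Car1. By Car1 UMIs after thinning, 67 cells had under 10, 362 had 10 to 19, 447 had 20 to 29 and 261 had 30 or more, with median original depths of 9474, 7876, 8208 and 9325 UMIs. Hba-a1 had 92.5, 73.5, 38.9 and 31.4 CPM in these classes and Tfrc 86.6, 61.3, 53.7 and 42.9 CPM, so both were lowest where Car1 was highest. Ifitm1 had 98.5, 158, 100 and 44.4 CPM. Apoe (719, 897, 902 and 760 CPM), Gata2 (68.7, 88.4, 75.6 and 81.2 CPM), Klf1 (328, 360, 355 and 376 CPM) and Rhd (146, 133, 125 and 135 CPM) had no steady order. Over the 1137 cells, Fam132a and Fth1 had a Pearson correlation of 0.59 and Car2 and Fth1 of 0.51. Plac8 and Apoe had 0.42, and Apoe and Fth1 -0.42. These correlations are over cells of 1 library and share its depth and its sort.

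The same rule was rarely met outside the MEP gate. It held for 19 of 10870 LSK cells, 57 of 3713 CMP cells and 3 of 8027 GMP cells. The CMP cells are the nearest counterpart, although gate and library cannot be told apart and 33 of them reached 5000 UMIs, where 3 UMIs correspond to 18.2 CPM. The 57 were shallow, with a median of 5466 UMIs, and the MEP cells of 5000 to 8000 UMIs without Sphk1 had 1111 CPM of Apoe, 111 of Gata2 and 441 of Fos, nearer to the CMP values below than all of them together. Apoe had 1812 CPM in them against 857 CPM in the MEP cells of the same rule, a log2 ratio of MEP over CMP of -1.08 (-1.25 to -0.91). Gata2 had 236 against 80.6 CPM (-1.55, interval -2.03 to -1.04), and Fos 1461 against 282 CPM (-2.37, interval -2.57 to -2.17). Plac8 had 2412 against 695 CPM and Ifitm1 855 against 106 CPM. All 5 were thus higher in the CMP cells. Rhd was counted 5 times, 30.3 against 131 CPM (2.11, interval 0.89 to 3.74), and Fam132a 12 times, 72.7 against 424 CPM (2.54, interval 1.73 to 3.497). Gata1 (127 against 123 CPM) and Myb (236 against 234 CPM) were alike within intervals of -0.67 to 0.65 and -0.47 to 0.49. Of the 76 genes higher in the MEP cells without Sphk1, 70 had a still higher level in the CMP cells of the same rule, and of the 52 lower genes 10 did, where 1077 of all 2796 tested genes (38.5%) did.

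**Figure D5:**
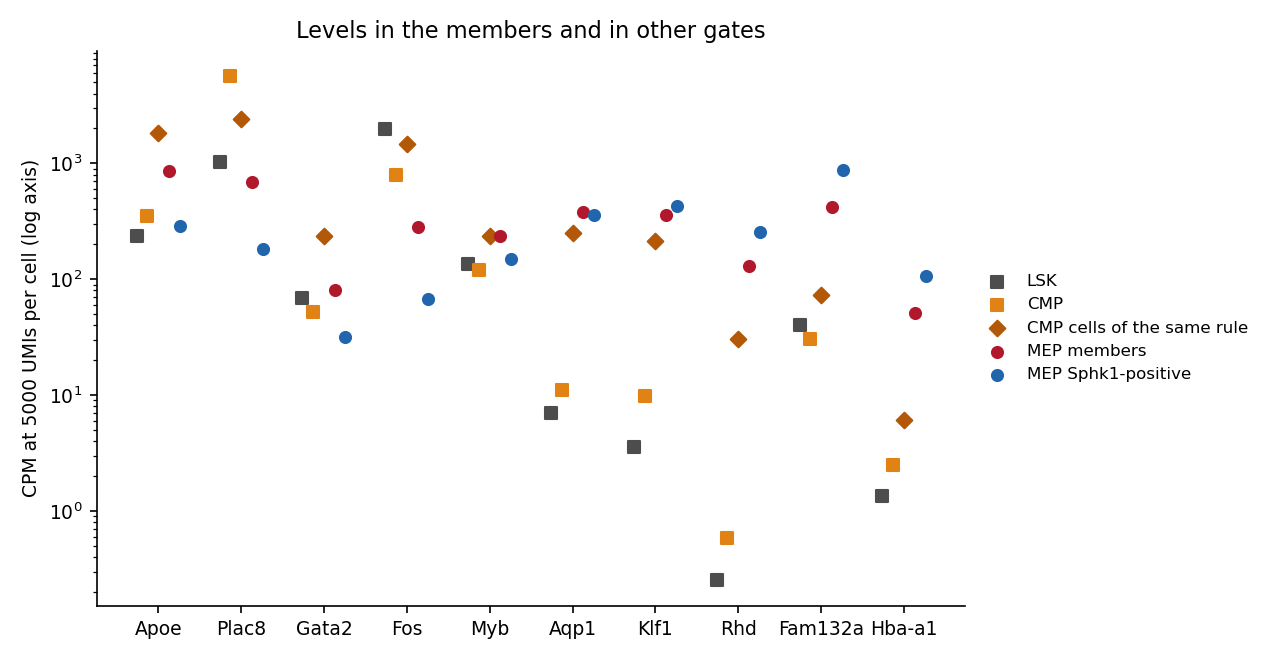
Level in CPM at 5000 UMIs per cell (log axis) of 10 genes in whole LSK and CMP libraries (squares), CMP cells of the same rule (diamonds, 33 cells), Sphk1-negative Car1 MEP cells (red, called MEP members in the plot) and Sphk1-positive MEP cells (blue). Apoe, Plac8, Gata2 and Fos are highest in the diamonds or in the LSK or CMP libraries, and Rhd, Fam132a and Hba-a1 are highest in the blue points. The diamond of Hba-a1 is 1 UMI.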

How the data were processed

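The deposited matrices hold raw UMI counts for each gene in each cell. Seurat 2.3.0, Cell Ranger 2.0.0, CASAVA 1.8.2 and mm10 are named in the submitters' processing notes, with no account of how cells were filtered. MEP, CMP and GMP barcodes were used as deposited, and for LSK the 10882 with the most UMIs. Counts of thinned cells (seed 1) were summed per group and divided by their total (CPM). Intervals are exact, at 95%, and cover counting error only (Poisson for levels, Clopper-Pearson for shares, conditional binomial for ratios). Cells are not replicates, so nothing was tested. Counts under 3 were set to 3 in ratios. List medians cover genes averaging at least 1 CPM.

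The members and the 29 gene lists were chosen with earlier results of these data known. Named genes were the 12 largest ratios in each direction, the leading 5 of each list, list members past the rule and the sort antigens, and some of the genes so taken are not reported. Genes said to be picked later fall outside this rule. Doublets stayed in, and 316 MEP cells (34 Sphk1-negative Car1 cells) were removed in an alternative. On simulated data, with 200 of 2708 genes changed 2-fold, 100% were recovered with 0 others. These were Poisson counts drawn from pooled levels, without spread between cells or a difference in original depth. They do not show how the rule behaves under either. Python 3.11.15, numpy 2.4.6 and scipy 1.17.1 were used.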

Additional observations from a re-analysis of the deposited data

How the results depend on the processing

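No paired analysis was possible because each gate was 1 library. The main counts were 76 genes higher and 52 lower. They were 43 and 32 at 8000 UMIs per cell, 27 and 1 with Sphk1 read after thinning, 117 and 98 against cells with 3 or more UMIs of Sphk1, 21 and 10 among cells of 12000 UMIs or more, and 23 and 13 with original depth matched. Other limits of size gave 193 and 91 (20 CPM), 2510 and 500 (no CPM minimum) and 33 and 11 (2-fold). Within 12000 to 16000 UMIs, chosen after seeing the data like the alternatives without shared barcodes and without marker-bearing cells, they were 28 and 27. The other 24 counts stayed within 1.5 times the main ones. These covered 3000 UMIs per cell, no thinning, another seed, other Car1, Pf4 and mitochondrial limits, comparison cells under the Car1 and Pf4 rules, doublets removed, median-of-ratios factors, and the 2 other alternatives added later. With another seed for the thinning, 67 of the 76 and 46 of the 52 genes passed again. Of the 76 and 52 genes, 75 and 51 kept their direction from 12000 UMIs and 71 and 48 within 12000 to 16000. Among the named genes, Dusp1 turned to -0.25 from 12000 UMIs and to -0.57 within 12000 to 16000, and within that window Gata2 turned to -0.0073, Hbb-bs to 0.13, Ube2c to 0.067 and Aurka to 0.076. The cause was not tested.

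The limits are those of 1 library. Intervals cover counting error and no variation between animals or sorts. Absence of Sphk1 in a cell means that none was counted, and 77.5% of the shallowest MEP cells had none. The groups differ in original depth, so their contrast holds that difference too, except where depth was matched. The Sphk1-positive cells had no Car1 or Pf4 limit, also where depth was matched. Of 1462 cells, the 325 below 5000 UMIs are outside the main comparison.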
